A study of Mus musculus with 36 samples.

Results

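The genes examined here make, recycle or use nicotinamide adenine dinucleotide (NAD). They are the 10 genes *Nmrk1*, *Nampt*, *Nmnat1*, *Nmnat3*, *Nadsyn1*, *Qprt*, *Nnmt*, *Cd38*, *Sirt1* and *Sirt3*, found by their symbols among the 56748 genes of the deposited table, and all 10 were found. They were chosen by their measured levels, since earlier results of these libraries had shown a higher hepatic level of *Nmrk1* on high-fat diet, so the liver diet differences of the 10 genes are described below without a test.

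RNA was sequenced from the visceral white adipose tissue (visWAT, here epididymal fat) and the liver of the same 18 male C57BL/6J mice, which gave 36 libraries, 1 for each mouse and tissue. In *Mlkl* Adi-KO (KO) mice, an *Adipo*-Cre transgene deleted a loxP-flanked *Mlkl*, the gene of the necroptosis effector, in mature adipocytes, while WT mice were littermates with the loxP-flanked alleles and no Cre. Mice were 16 weeks old at the start and received normal chow diet (NCD, 4 mice per genotype) or high-fat diet (HFD, 5 mice per genotype) for 16 weeks. Whole tissue was sequenced, so all cell types of fat and liver contributed to each value, and *Mlkl* was deleted in only some of them. Mice are named by their numbers, which run from 151 to 164 on HFD and from 165 to 199 on NCD, and the time of day of sampling is not given in the sources used here.

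NAD carries electrons in metabolism and is also cut by signalling enzymes, so cells have to replace it. It is built from tryptophan by the kynurenine (de novo) route through *Qprt* and from nicotinic acid, both with *Nadsyn1* as the last step. It is also built from nicotinamide by *Nampt*, and from nicotinamide riboside by the kinase *Nmrk1*. The paired enzymes *Nmnat1* (nucleus) and *Nmnat3* (mitochondria) join the adenylyl part and so complete the dinucleotide, *Cd38* hydrolyses it, the deacylases *Sirt1* and *Sirt3* consume it, and *Nnmt* methylates nicotinamide and so takes it out of the salvage cycle. The liver runs the de novo route and releases nicotinamide to other tissues, which depend largely on salvage.

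Gene levels are given as FPKM, fragment counts divided by gene length and library size, with the mean ± SD over mice. The libraries held 20875463 to 25530574 reads on genes in liver and 21580696 to 30322171 in visWAT. *Mlkl* itself (ENSMUSG00000012519, chromosome 8) was lower in KO than in WT visWAT on HFD, at 2.32 to 2.72 against 4.58 to 6.28 FPKM (limma with Benjamini-Hochberg adjustment, adjusted p = 0.00162). On NCD, the KO values were 1.96 to 2.49 FPKM and the WT values 5.11, 4.63, 2.29 and 3.91 FPKM. The visWAT library labelled WT of mouse 182, at 2.29 FPKM, lay within the KO range and so against its label. The visWAT library of mouse 183 had 17.5% of its reads on genes that mark seminal vesicle. The visWAT library of mouse 156 (KO HFD) held 460 FPKM of the hepatocyte gene *Alb*, against 0.591 to 8.72 FPKM in the other 4 mice of its group and at least 25100 FPKM in every liver. Where leaving these libraries out changed a call of one of the 10 genes, the value without them is given beside it.

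*Nmrk1* (ENSMUSG00000037847, mm39 chromosome 19, 18609314 to 18629792, plus strand) and *Nampt* (ENSMUSG00000020572, chromosome 12, 32869544 to 32903348, plus strand) encode the entry enzymes of the nicotinamide riboside and the nicotinamide branch. The 250 bases before their annotated starts are shown because both genes stood higher in liver on HFD and because genes of the circadian clock, which act through short promoter motifs, differed in the same libraries. The sequences come from RefSeq on GRCm38.p6, an older build than that of the expression table, at chr19:18631766-18632015 for *Nmrk1* and chr12:32820085-32820334 for *Nampt*, both on the plus strand. Capitals mark AGGTCA, a half-site shared by REV-ERB and other nuclear receptors. Only these letters were matched, without the bases beside them, and binding was not tested.
Nmrk1: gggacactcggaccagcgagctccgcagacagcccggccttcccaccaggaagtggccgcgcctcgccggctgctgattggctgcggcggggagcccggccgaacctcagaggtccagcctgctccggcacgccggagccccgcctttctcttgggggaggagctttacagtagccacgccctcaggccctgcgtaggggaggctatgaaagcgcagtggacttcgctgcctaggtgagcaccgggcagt
Nampt: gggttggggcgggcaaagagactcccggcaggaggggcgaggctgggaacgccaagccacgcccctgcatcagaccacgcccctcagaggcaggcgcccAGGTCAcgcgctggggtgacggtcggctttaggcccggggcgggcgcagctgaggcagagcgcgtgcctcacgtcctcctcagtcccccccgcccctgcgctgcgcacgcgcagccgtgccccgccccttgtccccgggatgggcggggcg
The E-box CACGTG, the D-box TTATGTAA and AGGTCA were searched on both strands from 250 bases before to 50 after the start. None of these letters occurred in the *Nmrk1* window, and 1 AGGTCA occurred in the *Nampt* window, 151 bases before the start. Among 32851 promoters of the same length, 16.3% held AGGTCA, 7.15% the E-box and 0.938% the D-box. Of the 9 members with a promoter in the table, *Nmnat3* held 1 AGGTCA and *Sirt1* held 2 E-boxes.

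In liver, the level of *Nmrk1* differed between the diets in both genotypes. WT livers on NCD held 4.96, 6.24, 5.91 and 5.89 FPKM of *Nmrk1*, and WT livers on HFD 26.6, 24.2, 25.6, 22.8 and 26.3 FPKM. KO livers on NCD held 5.44, 6.85, 5.65 and 7.07 FPKM, and KO livers on HFD 27.5, 20.1, 23.9, 26.1 and 25.3 FPKM. The lowest HFD liver thus lay far above the highest NCD liver, and within each diet the WT and KO values overlapped. The means were 5.75 ± 0.548 (SD, n = 4) and 25.1 ± 1.59 (SD, n = 5) in WT, a 4.37-fold difference (1.95 ± 0.07 SE on the log2(FPKM + 1) scale), and 6.25 ± 0.826 and 24.6 ± 2.83 in KO, a 3.94-fold difference (1.82 ± 0.10). In bulk tissue, fewer cells of a type and less RNA per cell cannot be told apart. Summed hepatocyte markers were 52908 to 61444 FPKM in WT and 58227 to 63541 FPKM in KO livers on NCD, and 38467 to 44058 and 41128 to 50566 FPKM on HFD, so they stood lower where *Nmrk1* stood higher. Their part in the difference was not tested.

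**Figure D1:**
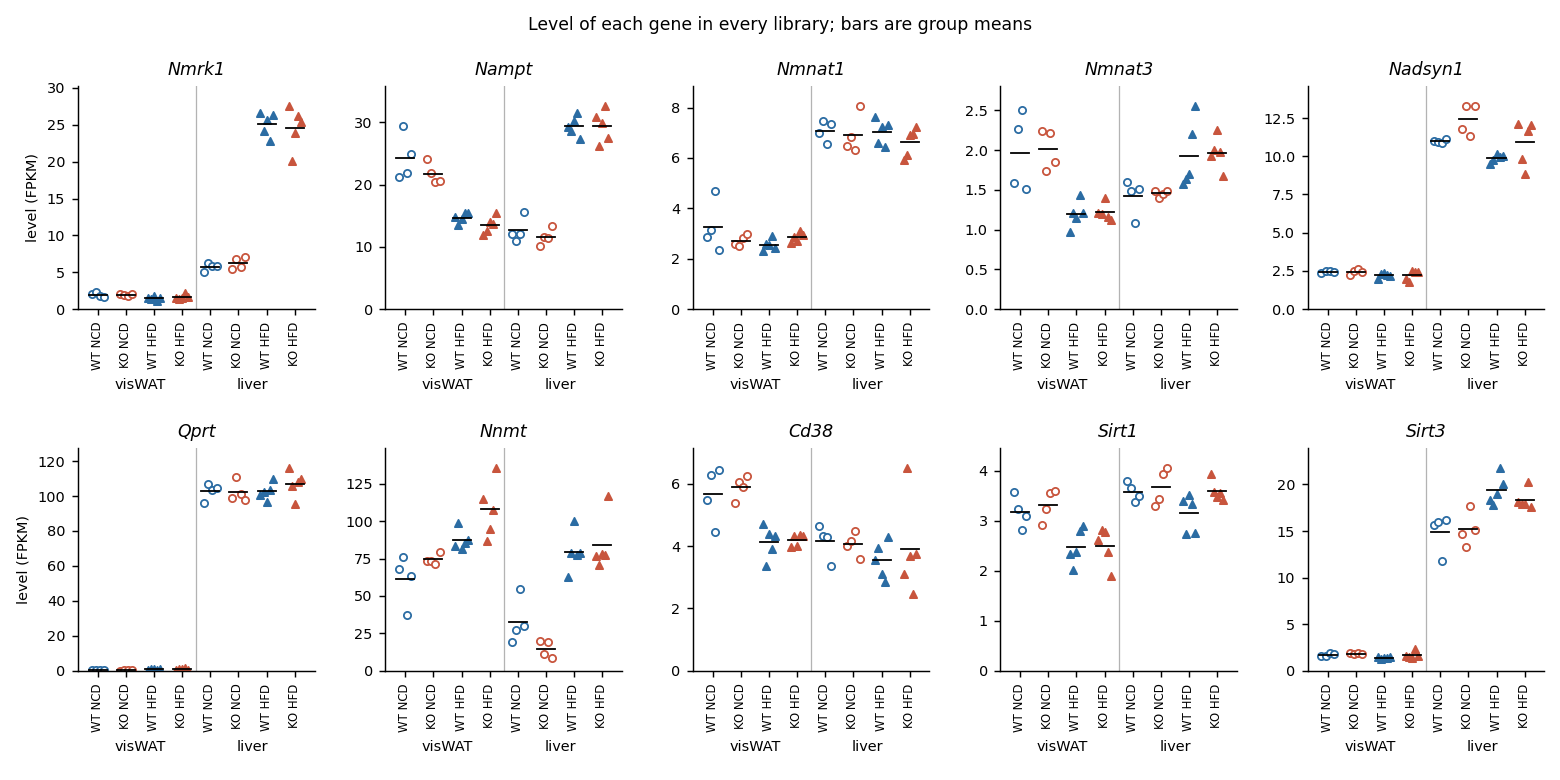
FPKM of the 10 genes in each library (y axis, linear, 1 panel per gene with its own scale) across the 8 groups of tissue, genotype and diet (x axis). Open circles are NCD, filled triangles HFD, blue WT, red KO, and bars are group means. *Nmrk1* reached 20.1 to 27.5 FPKM in the HFD livers and stayed at 7.07 FPKM or less elsewhere.

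*Nampt*, the rate-limiting enzyme of nicotinamide salvage, was the other synthesis gene with a clear difference between the diets in liver. Its values were 12.1, 10.9, 12 and 15.6 FPKM in WT NCD livers and 29.2, 28.6, 30.2, 31.4 and 27.3 FPKM in WT HFD livers. KO livers held 10.2, 11.5, 11.5 and 13.3 FPKM on NCD and 30.9, 26.2, 29.9, 32.6 and 27.4 FPKM on HFD. No NCD liver reached the lowest HFD liver in either genotype. The HFD means were 2.32-fold (WT) and 2.53-fold (KO) those on NCD, or 1.16 ± 0.09 and 1.27 ± 0.09 (SE) on the log2(FPKM + 1) scale.

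*Nnmt*, the methyltransferase that removes nicotinamide, was also higher in HFD livers. WT livers held 19.1, 27.3, 54.4 and 29.8 FPKM of *Nnmt* on NCD and 62.5, 79.0, 99.97, 77.5 and 78.7 FPKM on HFD. KO livers held 19.9, 11.1, 19.1 and 8.25 FPKM on NCD and 77.0, 70.6, 78.4, 77.3 and 117 FPKM on HFD. The diets did not overlap in either genotype, but the NCD values ran over a wide range, from 8.25 FPKM in KO mouse 199 to 54.4 FPKM in WT mouse 182. The fold was 2.44 in WT (1.34 ± 0.26 SE, log2) and 5.75 in KO (2.50 ± 0.25). In the liver of mouse 182, summed macrophage markers were at 115 FPKM against a group median of 37.7 FPKM, and summed fibroblast and progenitor markers at 92.6 against 29.0 FPKM, and their part in its *Nnmt* level was not tested.

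The steps between these branches differed little between the diets in liver. *Nmnat1* ranged from 5.90 to 8.06 FPKM over the 18 livers and *Qprt* from 95.6 to 116 FPKM, and the log2 difference between the diets was 0.07 or less in size for either gene in either genotype. *Nmnat3* stood at 1.42 ± 0.23 on NCD and 1.93 ± 0.429 on HFD in WT, and at 1.46 ± 0.0402 and 1.97 ± 0.208 in KO, with overlap in WT only. *Nadsyn1*, the glutamine-dependent synthetase of the nicotinic acid and de novo routes, was slightly lower on HFD. It stood at 9.87 ± 0.254 against 11 ± 0.104 FPKM in WT, where the diets did not overlap, and at 10.9 ± 1.49 against 12.4 ± 1.01 FPKM in KO, where they did.

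Among the consumers, the mitochondrial deacylase *Sirt3* was 1.30-fold higher on HFD in WT livers (15.6, 16.0, 11.8 and 16.1 FPKM on NCD, 17.8 to 21.8 FPKM on HFD) and 1.21-fold higher in KO livers (13.3 to 17.7 against 17.5 to 20.2 FPKM), with overlap in KO only. *Cd38* ranged from 2.45 to 6.51 FPKM and *Sirt1* from 2.73 to 4.06 FPKM over all livers, and their diets overlapped. The highest *Cd38* was that of KO HFD mouse 152, whose summed macrophage markers were at 105 FPKM against a group median of 35.8 FPKM, and their part in it was not tested. In WT livers, 4 of the 10 genes lay higher on HFD without overlap and 1 lower, where 13.3% and 11.6% of all genes tested did so. In KO livers, 4 lay higher and 0 lower, beside 11.6% and 9.89% of all genes tested. These counts follow from how the genes were chosen.

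**Figure D2:**
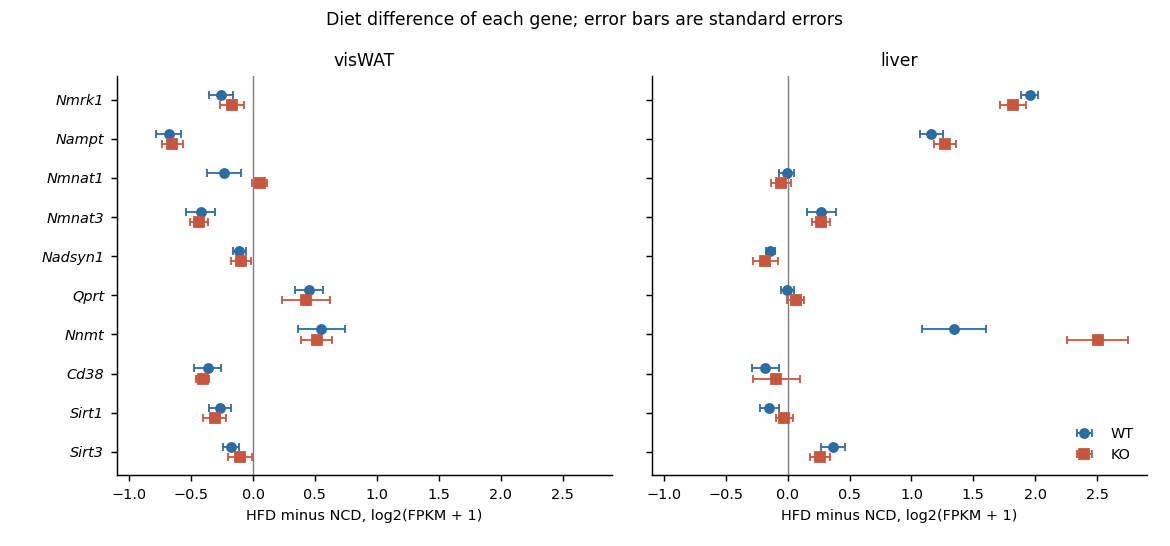
Difference between HFD and NCD (x axis, log2(FPKM + 1), HFD minus NCD, bars are SE) of the 10 genes in visWAT and in liver, with circles for WT and squares for KO. *Nampt* lies at -0.68 and -0.65 in visWAT and at 1.16 and 1.27 in liver, and *Nmrk1* at 1.95 and 1.82 in liver.

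In visWAT, which the choice of the genes did not use, the question was how the diet changed the same steps in fat. *Nampt* fell on HFD in both genotypes. Its values were 21.2, 29.5, 21.9 and 24.9 FPKM in WT NCD fat and 14.7, 13.5, 14.5, 15.4 and 15.4 FPKM in WT HFD fat. KO fat held 24.1, 21.8, 20.4 and 20.6 FPKM on NCD and 11.9, 12.5, 14.0, 13.7 and 15.4 FPKM on HFD. Every HFD value lay below every NCD value. The change was 0.603-fold in WT (-0.68 ± 0.10 SE, adjusted p = 0.000621, limma with Benjamini-Hochberg adjustment; exact permutation test, two-sided p = 0.00794, the smallest 5 against 4 mice allow) and 0.62-fold in KO (-0.65 ± 0.08, limma adjusted p = 0.000582). When each library was scaled to the sum of its FPKM (TPM), *Nampt* in WT was at -0.24 (limma adjusted p = 0.508), and without mice 182 and 183 on that scale at -0.63 (limma adjusted p = 0.00173).

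*Nmrk1* in visWAT did not share the liver pattern. The WT values were 2.05, 2.26, 1.78 and 1.58 FPKM on NCD and 1.48, 1.32, 1.73, 1.12 and 1.56 FPKM on HFD, and the diets overlapped. The difference of -0.26 ± 0.10 (SE, log2) missed the threshold by limma (adjusted p = 0.0617) and passed it with edgeR (-0.46, adjusted p = 0.0387) and DESeq2 (-0.45, adjusted p = 0.0232) on the reads recovered from the FPKM. Without mouse 183 it was -0.31 (limma adjusted p = 0.0267), and without mice 182 and 183 it was -0.38 (adjusted p = 0.0171). In KO it was -0.17 (limma adjusted p = 0.166), and without mouse 156, which had the group's highest *Nmrk1* at 2.21 FPKM, it was -0.25 (limma adjusted p = 0.0146).

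The mitochondrial *Nmnat3* fell in both genotypes. WT fat held 1.59, 2.27, 2.50 and 1.51 FPKM on NCD and 0.968, 1.21, 1.14, 1.44 and 1.21 FPKM on HFD, and KO fat 2.24, 1.74, 2.22 and 1.85 FPKM on NCD and 1.12 to 1.40 FPKM on HFD. The groups did not overlap in either genotype, and the differences were -0.42 ± 0.11 (limma adjusted p = 0.0169) in WT and -0.44 ± 0.07 (limma adjusted p = 0.00153) in KO. On the TPM scale the WT difference was -0.20 (limma adjusted p = 0.590), and without mice 182 and 183 on that scale -0.48 (limma adjusted p = 0.0298). The nuclear *Nmnat1* did not pass (-0.23, adjusted p = 0.209 in WT and 0.05, adjusted p = 0.491 in KO, limma), nor did *Nadsyn1* (-0.11, adjusted p = 0.133 and -0.10, adjusted p = 0.349).

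*Qprt*, the quinolinate phosphoribosyltransferase of the de novo route, was scarce in fat. WT fat held 0.255 to 0.425 FPKM on NCD, from 24 to 35 reads per library, and 0.586, 1.21, 0.882, 0.617 and 0.977 FPKM on HFD. KO fat held 0.138 to 0.443 FPKM on NCD and 0.472, 0.839, 0.754, 1.76 and 0.341 FPKM on HFD. The diets did not overlap in WT but did in KO, where the highest value was that of mouse 156 with its 460 FPKM of *Alb*. The difference was 2.47-fold in WT (0.45 ± 0.11, limma adjusted p = 0.0109) and 2.59-fold in KO (0.43 ± 0.19, adjusted p = 0.101). Without mouse 156 the other 4 KO HFD values were 0.341 to 0.839 FPKM and *Qprt* was too low to test, and without mouse 157 the difference was 0.53 (limma adjusted p = 0.0489). *Qprt* passed the filter of a mean of 0.5 FPKM only through its HFD libraries, so its call is no support for a difference, and the log2(FPKM + 1) scale understates the change of so low a gene.

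*Nnmt* rose in fat of both genotypes on HFD. WT fat held 67.8, 76.4, 37.1 and 63.3 FPKM on NCD and 81.5 to 98.8 FPKM on HFD, and KO fat 71.5 to 79.4 FPKM on NCD and 115, 86.4, 94.6, 107 and 136 FPKM on HFD. All HFD values lay above all NCD values. The rise was 1.43-fold in WT (0.55 ± 0.19, limma adjusted p = 0.0452) and 1.45-fold in KO (0.51 ± 0.12, limma adjusted p = 0.00919), and the lowest WT value was that of mouse 182. In WT it was 0.33 without mouse 182 (limma adjusted p = 0.0194), 0.58 without mouse 183 (adjusted p = 0.0507) and 0.27 without both (adjusted p = 0.0410).

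The consumers *Cd38* and *Sirt1* fell in fat of both genotypes on the FPKM scale, but on the TPM scale their WT differences turned to 0.032 (limma adjusted p = 0.930) and 0.10 (adjusted p = 0.791), and in WT the calls held under 10 and 9 of 18 alternatives. *Cd38*, an ectoenzyme known from immune cells, stood at 5.48, 6.29, 4.44 and 6.43 FPKM in WT NCD fat and at 3.38 to 4.71 FPKM in WT HFD fat, with overlap, and at 5.39 to 6.25 against 3.97 to 4.37 FPKM in KO, without overlap. The change was 0.732-fold in WT (limma adjusted p = 0.0277) and 0.712-fold in KO (limma adjusted p = 0.000674). *Sirt1*, the nuclear deacylase, stood at 2.82 to 3.58 FPKM in WT NCD fat and 2.01 to 2.89 FPKM in WT HFD fat, with overlap, and at 2.91 to 3.60 against 1.90 to 2.81 FPKM in KO, without. It changed 0.780-fold in WT (limma adjusted p = 0.0415) and 0.752-fold in KO (limma adjusted p = 0.0227), and *Sirt3* 0.814-fold in WT (limma adjusted p = 0.0491). Without mouse 183 the WT differences were -0.31 for *Cd38* (limma adjusted p = 0.0555) and -0.28 for *Sirt1* (adjusted p = 0.0507), and without both mice 182 and 183 they were -0.42 (adjusted p = 0.0124) and -0.35 (adjusted p = 0.0265). *Sirt3* did not pass in WT without mouse 182 (-0.14, limma adjusted p = 0.0903), mouse 183 (-0.17, adjusted p = 0.0682) or both (-0.11, adjusted p = 0.177), and on the TPM scale it turned to 0.15 (adjusted p = 0.632). In KO, *Sirt3* did not pass (-0.10, adjusted p = 0.396), and without mouse 156, whose 2.32 FPKM was the highest of the group, it was -0.19 (limma adjusted p = 0.0224).

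Without *Qprt*, 6 genes passed in WT fat, 1 higher and 5 lower, and with it 7 of 10, where 37.8% of all genes passed (21.9% higher and 15.8% lower), and 5 of 10 in KO fat, 1 higher and 4 lower, near the 43.7% of all genes (23.3% higher and 20.3% lower). The WT calls varied with the processing. The calls of *Nampt* and *Nmnat3* held under at least 16 of 18 alternatives, but that of *Nnmt* under 9 and that of *Sirt3* under 4. That of *Qprt* held under all 17 in which it was tested. Most of these kept the filter that it passed only through its HFD libraries, so this adds no support. The TPM scale moved the median WT diet difference of all genes from -0.01 to 0.42, and the share of calls that were higher from 58.1% to 94.4% (69.4% without mice 182 and 183), and with edgeR it was 45.9%. Without mice 182 and 183, 6 of the 7 genes still passed on the FPKM scale, *Sirt3* did not, and *Nmrk1* did. In KO fat, *Nampt*, *Nmnat3*, *Nnmt* and *Cd38* passed under all 16 alternatives.

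The cell makeup of fat moved with diet as well. Summed macrophage markers, all 6 of 6 genes in the table, were 163 to 256 FPKM in WT NCD and 1519 to 2146 FPKM in WT HFD fat, and 221 to 389 and 592 to 1966 FPKM in KO. Summed adipocyte markers were 3970 to 6214 and 4330 to 5164 FPKM in WT, and 4978 to 6729 and 4816 to 7897 FPKM in KO. Fibroblast and progenitor markers were 184 to 254 and 492 to 619 FPKM in WT, and 239 to 285 and 251 to 653 FPKM in KO. The part of these cells in the changes of the 10 genes was not tested.

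Between the genotypes, which addresses what adipocyte *Mlkl* does to the same steps, none of the genes passed in 4 comparisons by limma, edgeR, DESeq2 or another alternative. At an unadjusted limma p under 0.05 there were 0 of 9 genes in visWAT on NCD, where *Qprt* was too low to test, 1 of 10 in visWAT on HFD, 2 of 10 in liver on NCD and 0 of 10 in liver on HFD, where 3.75%, 21.5%, 4.35% and 12.6% of all genes lay under it. After adjustment, 0%, 0.0215%, 0.00758% and 0.197% of all genes passed. These comparisons use the same mice as the diet comparisons.

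The widest genotype difference was that of *Nnmt* in NCD livers, at 14.6 ± 5.82 FPKM in KO and 32.7 ± 15.2 FPKM in WT. The values were 8.25 to 19.9 against 19.1 to 54.4 FPKM and overlapped (0.447-fold, -1.09 ± 0.35, limma adjusted p = 0.996; exact permutation test, two-sided p = 0.0857). Without the WT liver of mouse 182 the difference was -0.82 (limma adjusted p = 0.818). On HFD, *Nnmt* in fat was 1.23-fold higher in KO (0.29 ± 0.12, limma adjusted p = 0.222; exact permutation p = 0.0556). *Nadsyn1* in NCD livers was 11.3 to 13.3 FPKM in KO and 10.9 to 11.1 FPKM in WT, without overlap, as in 2.8% of all genes tested, with an exact permutation p of 0.0286, the smallest 4 against 4 mice allow, and a limma adjusted p of 0.996.

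The diet effect itself was compared between the genotypes by an interaction, and 0 of the 10 genes passed in either tissue by any tool, where 0% of all genes passed in visWAT and 0.0151% in liver. At an unadjusted limma p under 0.05 there was 1, *Nnmt* in liver, where 6.12% of all genes lay under it. For *Nmrk1* in liver the KO effect minus the WT effect was -0.13 (limma adjusted p = 0.981), for *Nampt* 0.11 (adjusted p = 0.987). For *Nnmt* in liver it was 1.16 ± 0.38 (limma adjusted p = 0.523), and 0.89 (adjusted p = 0.520) without mouse 182.

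The members were set most apart by tissue. On NCD, *Qprt* stood at 103 FPKM in WT liver and 0.345 FPKM in WT visWAT, and its highest group mean was 333 times its lowest. *Qprt* (-6.27), *Sirt3* (-2.54), *Nadsyn1* (-1.80), *Nmrk1* (-1.21) and *Nmnat1* (-0.95, log2 difference, visWAT minus liver) were lower in WT fat than in WT liver, with limma adjusted p from 7.58e-11 for *Qprt* to 0.00069 for *Nmnat1*. In both genotypes *Qprt* entered this test only through its liver libraries. Its call and adjusted p are thus no support for a difference, and its levels stand as values. *Nampt* was 1.92-fold (adjusted p = 0.000576), *Nnmt* 1.87-fold (adjusted p = 0.0338) and *Cd38* 1.36-fold (adjusted p = 0.031) higher in WT fat. In KO mice the same 8 genes passed in the same directions, with *Nnmt* 5.09-fold higher in fat (limma adjusted p = 1.34e-05), and *Nmnat3* was also higher there (0.29, limma adjusted p = 0.00538). *Sirt1* passed in neither genotype (-0.13, adjusted p = 0.169, and -0.12, adjusted p = 0.217).

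That made 8 of 10 genes in WT, 3 higher and 5 lower in fat, where 65.5% of all genes passed (31.5% higher and 34% lower), and 9 of 10 in KO, 4 higher and 5 lower, where 77.9% did (37.4% and 40.6%). *Qprt* passed the filter only through its liver libraries and *Sirt1* turned with the scale, so these shares add nothing to the values. Without the fat libraries of mice 182 and 183 the same 8 genes passed in WT, with *Nnmt* at 1.22 (limma adjusted p = 0.0268) and *Cd38* at 0.42 (adjusted p = 0.0224). Without that of mouse 183 alone, *Nnmt* (0.90, adjusted p = 0.0647) and *Cd38* (0.31, adjusted p = 0.0702) did not pass and *Nmnat3* did (0.36, adjusted p = 0.0447). With the mouse as a block, since both tissues came from the same animals, 6 passed in WT, and *Nnmt* (adjusted p = 0.0914) and *Cd38* (adjusted p = 0.0709) no longer did. On the TPM scale the median of all genes moved from -0.03 to 0.52 in WT and from -0.04 to 0.88 in KO, the share of calls higher in fat from 48.1% to 72.7% and from 47.9% to 80.9%, and *Sirt1* in KO to 0.82 (limma adjusted p = 1.41e-05). *Nmnat1* did not pass in WT on that scale (limma adjusted p = 0.260). RNA was extracted from the tissues by different methods, and tissue and extraction cannot be told apart.

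**Figure D3:**
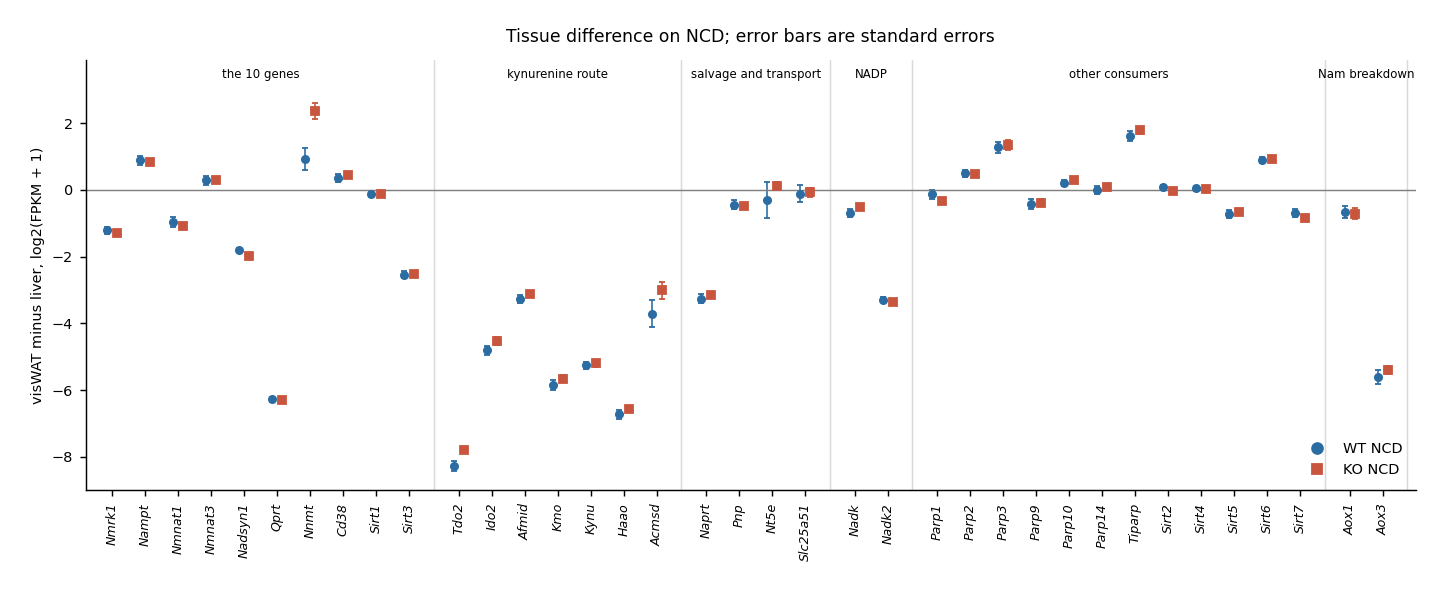
Difference between visWAT and liver on NCD (y axis, log2(FPKM + 1), visWAT minus liver, bars are SE). Along the x axis are the 10 genes and the other NAD genes tested in both genotypes, with circles for WT and squares for KO. *Tdo2*, *Haao*, *Qprt* and *Kmo* lie farthest on the liver side in both genotypes, and *Tiparp* in WT (1.60) and *Nnmt* in KO (2.35) farthest on the side of fat.

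Across the 8 groups, the order of the levels was steep for some genes and shallow for others. *Nmrk1* was highest in the HFD livers, where WT and KO overlapped, then in the NCD livers, which also overlapped each other, and lowest in visWAT, where each group overlapped its neighbour in the order, and the highest mean was 17.4 times the lowest. *Nampt* was highest in the HFD livers on the FPKM scale, with which WT NCD fat overlapped, and its means spanned 2.53-fold. On the TPM scale its order was another, with NCD fat highest (means of 86.6 in KO and 77.7 in WT), then WT HFD fat (62.6) and the HFD livers (58.2 in WT and 55.6 in KO). *Sirt3* spanned 13.8-fold, *Nnmt* 7.38-fold and *Nadsyn1* 5.65-fold. *Nmnat1*, *Nmnat3*, *Cd38* and *Sirt1* spanned from 1.48-fold (*Sirt1*) to 2.77-fold (*Nmnat1*).

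Other genes of the pathway were taken from a list of 33. In liver they were tested for diet, and 4 of the 27 measured passed in WT (25.3% of all genes did). *Ido2*, an indoleamine dioxygenase of the kynurenine route, rose from 28.2 to 47.7 FPKM in WT (0.76, limma adjusted p = 0.00252), *Kmo*, the kynurenine hydroxylase (0.41, adjusted p = 0.0409), and *Slc25a51*, the mitochondrial NAD carrier (0.41, adjusted p = 0.0263), rose too, and *Kynu*, the kynureninase, fell (-0.39, adjusted p = 0.0139). In KO livers 9 of 27 passed (22.2% of all genes), among them *Ido2*, from 24.6 to 52.8 FPKM (1.09, limma adjusted p = 0.000216), the poly-ADP-ribose polymerase family member *Parp14* (0.49, adjusted p = 0.0134), the formamidase *Afmid* (0.49, adjusted p = 0.00188), and lower *Pnp* (-0.66, adjusted p = 0.0304), *Kynu* (-0.39, adjusted p = 0.0406) and *Haao* (-0.21, adjusted p = 0.0466).

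In visWAT, 12 of 22 other pathway genes passed for diet in WT, 5 higher and 7 lower, where 37.8% of all genes did, and 11 of 25 in KO, 4 higher and 7 lower, near the 43.7% of all genes. *Afmid* (0.343 FPKM on NCD, in WT) and *Nt5e* (0.257 FPKM in WT and 0.218 FPKM in KO on HFD) entered the test only through the diet where they were high, which leaves 10 in WT and 10 in KO. The calls of *Afmid* and *Nt5e* in visWAT, given below with their adjusted p, are thus no support for a difference. *Bst1*, a relative of *Cd38* that also hydrolyses NAD, rose from 0.833 to 2.87 FPKM in WT (1.07, limma adjusted p = 1.21e-05) and in KO (0.76, adjusted p = 0.0161), while *Cd38* fell in the same libraries. *Afmid* (0.42, adjusted p = 0.00195) and *Parp14* (0.37, adjusted p = 0.0434) also rose in WT, and *Sirt2* (0.43, adjusted p = 0.00135) and *Parp3* (0.35, adjusted p = 0.03) in KO. *Nt5e*, the surface nucleotidase CD73 (-0.89, adjusted p = 0.0475 in WT and -0.71, adjusted p = 0.00131 in KO), *Tiparp*, a mono-ADP-ribosyltransferase (-0.59, adjusted p = 0.00444 and -0.76, adjusted p = 0.00142), and *Aox1*, which oxidises methylnicotinamide (-0.57, adjusted p = 0.0266 and -0.41, adjusted p = 0.0216), fell in both. None of the other pathway genes passed between the genotypes (0 of 22 and 24 in visWAT, 0 of 27 and 27 in liver, limma). Between the tissues 20 of 27 passed in WT and 23 of 28 in KO, near the 65.5% and 77.9% of all genes. The 7 kynurenine genes tested in WT lay under 0.5 FPKM in fat and entered the test only through liver, so their direction followed from the filter and is given as values. *Tdo2*, the hepatic tryptophan dioxygenase, stood at 443 FPKM in WT liver and 0.432 FPKM in WT fat.

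The genes whose liver pattern was most like that of *Nmrk1* were ranked by Pearson's r of log2(FPKM + 1) over the 18 liver libraries among 9920 genes. *Cdk18* (r = 0.982), *Dnajb6* (0.979) and *Gda* (0.979) were among the highest, and *Nampt* had rank 5 (r = 0.977). The points share the diet groups, which set most of these values, and after removal of the group means r was 0.27 for *Cdk18*, 0.42 for *Dnajb6*, 0.20 for *Gda* and 0.37 for *Nampt*. *Nnmt* (0.849), *Sirt3* (0.758) and *Nmnat3* (0.715) came next among the members, and *Nadsyn1* was lowest (-0.478).

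**Figure D4:**
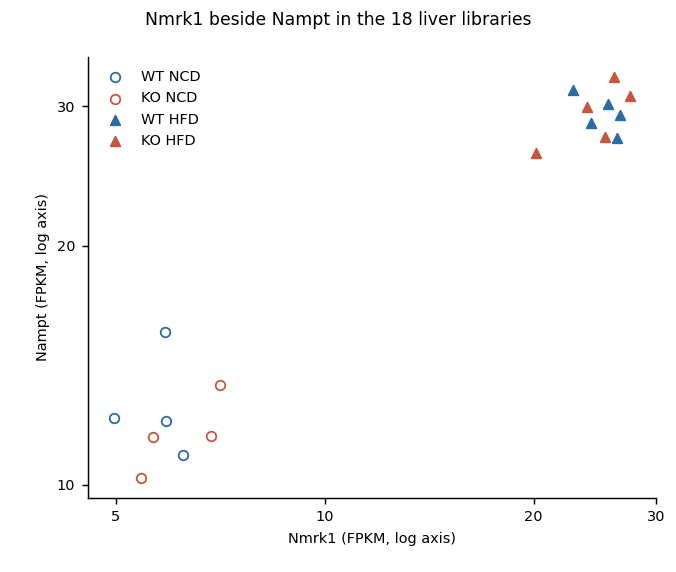
*Nmrk1* (x axis, FPKM, log scale) against *Nampt* (y axis, FPKM, log scale) in the 18 liver libraries, with open circles for NCD, filled triangles for HFD, blue for WT and red for KO. The libraries form an NCD and an HFD cluster, and WT and KO overlap within each.

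*Nampt* is a known output of the circadian clock, so the clock genes of the same livers are given beside it. In WT livers 11 of 13 clock genes tested passed for diet and in KO livers 10 of 13, where 25.3% and 22.2% of all genes did. *Nr1d1*, the repressor REV-ERB alpha that peaks in the day, fell from 64.8 ± 12 to 10.9 ± 1.27 FPKM in WT (-2.45, limma adjusted p = 7.94e-06) and from 57.8 ± 9.77 to 14.2 ± 1.21 FPKM in KO (-1.93, limma adjusted p = 1.92e-05). *Per2*, a negative arm gene that peaks later, rose from 3.97 to 17.8 FPKM in WT and from 3.52 to 16.5 FPKM in KO (1.98 and 1.94). *Arntl*, the activator BMAL1, fell from 1.66 to 0.514 FPKM in WT (-0.79, limma adjusted p = 0.00309) and from 1.24 to 0.382 FPKM in KO (-0.68, adjusted p = 0.00785). In KO, *Arntl* passed the filter of a mean of 0.5 FPKM only through its NCD livers. Its KO call, among the 10 that passed, is thus no support for a difference. Of the other clock genes listed as peaking from day to evening, *Dbp*, *Tef*, *Hlf*, *Per3* and *Ciart* rose in both genotypes, as *Per2* did. *Nr1d2* and *Per1* did not pass, so *Nr1d1* was the only gene of that list that passed as lower. Of the remaining genes, *Clock* fell and *Cry1* rose in both genotypes, and *Nfil3* fell in WT. In visWAT, where *Nampt* fell, 2 of 14 clock genes passed in WT, among them lower *Nr1d1* (-1.07, limma adjusted p = 0.000169), and 4 of 13 in KO, where 37.8% and 43.7% of all genes did. The sources used here give no time of day for any mouse, so diet and a difference in sampling time between the diet groups cannot be told apart for *Nmrk1*, *Nampt* or the clock genes.

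**Figure D5:**
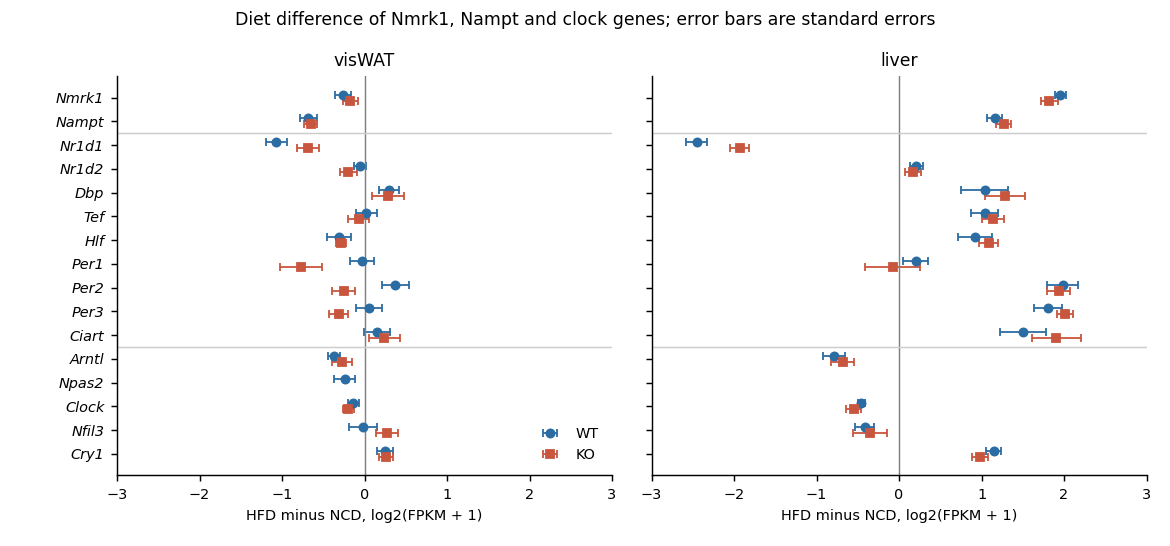
Difference between HFD and NCD (x axis, log2(FPKM + 1), HFD minus NCD, bars are SE) of *Nmrk1*, *Nampt* and the clock genes tested in visWAT and in liver, with circles for WT and squares for KO. In liver *Nr1d1* lies at -2.45 and -1.93, and *Nmrk1* at 1.95 and 1.82.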

How the data were processed

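PolyA-selected RNA of whole visWAT and liver was sequenced, 1 library per mouse and tissue. The authors trimmed reads with fastp, aligned them to mm39 with HISAT2 and counted reads per gene with featureCounts (1.5.0-p3). Strandedness and the treatment of multi-mapping reads are not given in the sources used here. The deposited FPKM, read counts that the authors divided by gene length and library size, were used. Dividing out length and library size gave whole reads in 100% of values (tolerance 0.01). The library size behind the FPKM was 0.737 to 0.812 of the reads on genes in liver and 1.01 to 1.40 in visWAT. The deposited gene length came from the same file. Columns of the authors' own fold changes and p-values, their pathway tables and 72 other columns of per-sample values were not used.

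Values were tested as log2(FPKM + 1) with limma (3.58.1, R 4.3.3) over all genes with a mean of at least 0.5 FPKM in the 2 groups compared (all groups of a tissue for the interaction), with Benjamini-Hochberg adjustment over all genes tested and a threshold of 0.05. Fold changes are ratios of mean FPKM, and log2 differences are on the log2(FPKM + 1) scale, which understates the change of low genes. Single genes were also compared by an exact two-sided permutation test. Alternatives were edgeR (4.0.16) and DESeq2 (1.42.0) on the recovered counts, other filters and pseudocounts, the TPM scale and 1 fit per tissue. Further ones were leaving out each library in turn, which within a tissue is each mouse, and, for tissue, a mouse block. Both tissues came from the same animals, but the main test between tissues did not pair them, and the mouse block was an alternative. The correlation of the 2 tissues' deviations from their group means was -0.073 to 0.082 in WT and 0.012 to 0.138 in KO mice. The limma procedure was run on simulated counts for diet in WT visWAT and for genotype in HFD liver. The other procedures were not tested on simulated data.

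The 10 genes, the pathway, clock and marker lists and the rule for naming genes were chosen with earlier results of these data known. All 10 genes are given, and other pathway genes were named by the size of their difference among those that passed. Among the clock genes, *Nr1d1*, *Per2* and *Arntl* were picked to be given with values after these were seen, and not by size. The other clock genes tested in liver are given by direction. *Per3*, for example, differed more than *Arntl* in liver (1.81 in WT and 2.01 in KO). One gene of the likeness ranking is not reported here. Matching to RefSeq promoters (GRCm38.p6) was by symbol. Replicates are different mice.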

Additional observations from a re-analysis of the deposited data

Results flagged for a closer look

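Among the 80 sets of a gene and a group, 4 held a library flagged as an outlier, and chance gives about 1 in 20. A library was flagged where its distance to the nearest of the others, divided by the range of the group, exceeded Dixon's 95% critical value. *Nnmt* in liver of KO HFD mouse 157 was 117 FPKM against 70.6 to 78.4 FPKM in the others. *Sirt3* in visWAT of KO HFD mouse 156, the library with 460 FPKM of *Alb*, was 2.32 FPKM against 1.40 to 1.63 FPKM. *Sirt3* in liver of the same mouse was 20.2 FPKM against 17.5 to 18.1 FPKM. *Sirt3* in liver of WT NCD mouse 182 was 11.8 FPKM against 15.6 to 16.1 FPKM in the others.

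In some genes every HFD mouse lay on one side of every NCD mouse in visWAT and on the opposite side in liver. *Nampt* differed by -0.68 in visWAT and 1.16 in liver of WT mice, and by -0.65 and 1.27 in KO mice (log2(FPKM + 1), HFD minus NCD). *Nmnat3* differed by -0.44 in visWAT and 0.27 in liver of KO mice, and *Sirt3* by -0.18 and 0.37 in WT mice. The difference between the tissues in the diet effect was not tested.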

How the results depend on the processing

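Of the 10 genes, 7 passed for diet in WT visWAT, among them *Qprt*, which entered only through its HFD libraries, 3 with no filter on low values, 2 on the TPM scale, and 4 on the TPM scale without mice 182 and 183, an alternative chosen after seeing the data. Leaving out 1 mouse at a time gave 3 to 6, and 4 to 7 in KO visWAT, where 5 passed. On the TPM scale the WT differences of *Cd38*, *Sirt1* and *Sirt3* turned to 0.032, 0.10 and 0.15, none of which passed. Between the tissues *Sirt1* turned to 0.82 (KO, TPM) and 0.84 (WT, TPM without mice 182 and 183). For the other pathway genes in liver, 4 passed in WT, 2 with no filter and 2 to 7 with 1 mouse left out, and in KO 9, 5 with no filter and 5 to 8 with 1 mouse left out. The cause of these changes was not tested.

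With the replicate block for mouse, 6 genes in place of 8 passed between the tissues in WT and 9 in KO, as without it. Leaving out 1 library, with the other tissue of its mouse kept, gave 6 to 8 in WT and 9 in KO. Genotype and interaction counts of the 10 genes were 0 under every alternative run, also with 1 mouse left out. Over all genes, DESeq2 called 8, 161, 21 and 262 genes between genotypes (visWAT NCD, visWAT HFD, liver NCD, liver HFD) where limma called 0, 3, 1 and 26 (7 in liver HFD with no filter). For the interactions DESeq2 called 19 genes in visWAT and 63 in liver, and limma 0 and 2. On the TPM scale the median genotype difference of all genes in visWAT moved from 0.01 to 0.35 on NCD and from -0.00 to -0.10 on HFD, that of the interaction from -0.01 to -0.45, and the share of higher calls between genotypes in HFD liver from 65.4% to 42.9%. The highest group on the TPM scale was that of the FPKM scale for 6 of 10 genes, and another for *Nampt*, *Nmnat1*, *Qprt* and *Sirt1*. Of 80 exact tests, 32 gave p under 0.05, pooled over diet in visWAT, genotype and tissue. The exact test was not run on all genes, so no share of all genes stands beside this count. By limma, 37.8% (WT) and 43.7% (KO) of all genes passed for diet in visWAT, and 65.5% and 77.9% between the tissues. The count is thus no result about the 10 genes. Depth limits *Qprt* in fat, read from 12 to 137 reads per library.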

Other observations

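Several genes of the pathway were at or near 0. *Nmrk2*, the muscle paralog of *Nmrk1*, and *Ido1* had no read in any of the 18 livers, where 3 reads would give 0.0781 to 0.101 FPKM of *Nmrk2* and 0.0793 to 0.103 FPKM of *Ido1*. In visWAT *Nmrk2* reached at most 0.0317 FPKM and *Ido1* 0.713 FPKM. *Nmnat2*, the neuronal adenylyltransferase, lay at 0.139 to 0.423 FPKM in visWAT and 0.00994 to 0.170 FPKM in liver. *Slc12a8*, described as a carrier of nicotinamide mononucleotide, reached at most 0.507 FPKM in visWAT and 0.396 FPKM in liver, and *Sarm1*, an NAD hydrolase of neurons, at most 0.191 and 0.176 FPKM. None of these values tells how much protein was present.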
